A study of Mus musculus with 36 samples.

Results

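Olfr2 (ENSMUSG00000070417), long known as I7, is 1 of 1094 protein-coding olfactory receptor genes among 57010 gene identifiers in ribosome-associated RNA pulled down from mouse olfactory epithelium with an antibody to phosphorylated S6 (pS6), a ribosomal protein. It was found by its symbol in the GENCODE vM21 annotation and followed through all 36 libraries. The mice were male, wild-type C57BL/6J, 8 weeks old, habituated to an odorless chamber for 4 h, and then met filter paper with 10 µL of odorant, or empty paper, during 90 min. The 12 groups of 3 mice form 3 sets, which the labels give as batches. The AD set holds acetophenone, decanal, their equal mixture and no odor. The OC set holds octanal, cis-3-hexenol, their equal mixture and no odor. The FM set holds a floral fragrance, a mint fragrance, their mixture and no odor. The single odorants were undiluted, so each component had a smaller volume in a mixture than alone, and a change of dose and the presence of the partner cannot be told apart.

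Odorant receptors are G protein-coupled receptors of the sensory neurons in the nose, and a mature neuron typically expresses a single receptor gene. Rat I7 was among the first receptors to be paired with an odorant, and straight-chain aldehydes around octanal are its best-known activators. S6 becomes phosphorylated in neurons that have fired, so pS6 immunoprecipitation enriches the receptor mRNA of the neurons an odor activated. Octanal and decanal are both straight-chain aldehydes, of which decanal has the longer carbon chain. cis-3-Hexenol is a leaf alcohol. In these bulk libraries, fewer cells of a type and less RNA per cell cannot be told apart.

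Olfr2 has a coding sequence of 981 bases in 1 exon on the minus strand of chromosome 7, which encodes 327 residues. Of the 1093 receptor genes with a complete coding sequence, the closest to it by translated protein was Olfr524, also on chromosome 7, with 63.8% identical residues, against a median of 41.7% over the receptors. The stretch printed next is the 90 bases of the Olfr2 coding sequence from base 517 to base 606, with the matching bases 508 to 597 of Olfr524. It is shown because the reads of the genes can be told apart only at bases that differ. It was chosen as the stretch of 90 bases without gaps that matches Olfr524 best. Over the whole aligned coding sequences, 65.8% of bases were identical. Both are from the GENCODE vM21 transcripts, at chr7:107001253-107001342 and chr7:140202172-140202261 (GRCm38, minus strand), and capitals mark the 17 bases that differ.
Olfr2: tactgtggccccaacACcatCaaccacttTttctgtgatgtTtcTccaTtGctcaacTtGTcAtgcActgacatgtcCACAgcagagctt
Olfr524: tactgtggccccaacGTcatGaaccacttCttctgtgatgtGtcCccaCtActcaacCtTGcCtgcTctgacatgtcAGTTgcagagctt
None of the 932 runs of 50 bases in the Olfr2 coding sequence occurred in a transcript of another gene, and no other annotated gene overlapped Olfr2. Over its 7 annotated transcripts, 1.08% of the 6582 such runs occurred elsewhere.

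The libraries held 16.04 to 26.4 M counts each, and their receptor genes 37698 to 160400. Mature sensory neuron genes were present in every group, with their 6 markers summing to between 17366 and 25184 CPM (counts per 1 M, on library sizes scaled by TMM) with octanal and to between 6823 and 9054 CPM in OC controls. Every one of the 6, among them Omp, the olfactory marker protein, was higher with octanal. The 5 red blood cell markers were all lower with octanal and summed to between 7450 and 23192 CPM, against 78038 to 92617 CPM in OC controls. The 4 basal stem cell markers were all lower too, and 3 of 4 macrophage markers, in a comparison that called 14.4% of all genes as lower. The values of Olfr2 rest on 21 to 722 counts in a library.

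Olfr2 was high in the groups that received octanal and low in the other 10. The octanal libraries held 377, 722 and 526 Olfr2 counts, or 18.9, 42.6 and 28.4 CPM. The octanal and cis-3-hexenol mixture held 528, 538 and 518 counts, or 25.7, 25.8 and 21.3 CPM. The OC controls held 141, 47 and 42 counts, or 6.99, 2.78 and 2.76 CPM. All 6 libraries with octanal stood above all 3 OC controls and above each of the 30 libraries of the other 10 groups, which ran from 0.992 to 6.99 CPM with a median of 2.90 CPM. The cis-3-hexenol libraries held 1.98, 1.89 and 3.41 CPM and overlapped the controls. The first OC control stood apart from the other two, at 2.53 times their mean, and was the highest of the 30.

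**Figure D1:**
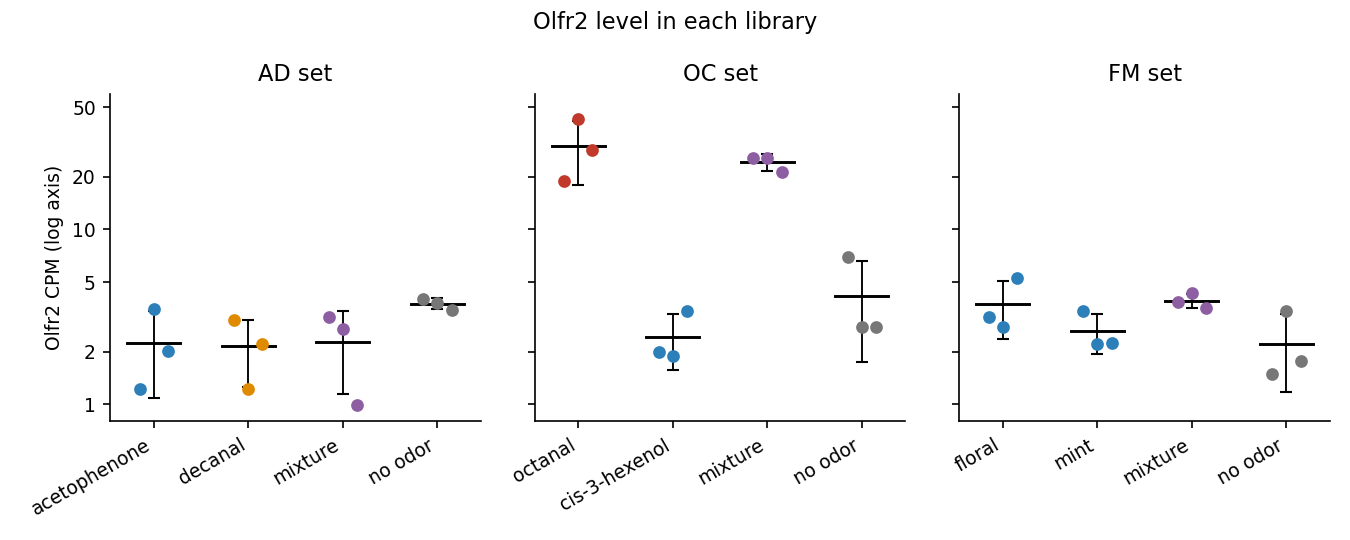
Olfr2 level (CPM, log axis) in each of the 36 libraries, with points for libraries and bars for the mean ± SD of 3 mice. The octanal libraries (18.9 to 42.6 CPM) and the OC mixture libraries (21.3 to 25.8 CPM) stand above all others, and the first OC control (6.99 CPM) lies above the remaining controls.

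In order of mean level, octanal came first with 29.98 ± 11.96 CPM and the OC mixture next with 24.3 ± 2.59 CPM (SD, n = 3 each), and their libraries overlapped. A gap followed: the third group was the OC control, at 4.17 ± 2.44 CPM, and its libraries did not overlap those of the mixture. From there on every group overlapped the next in the order, down to decanal with the lowest mean, 2.15 ± 0.897 CPM (SD, n = 3). The sets were scaled separately. With all 36 libraries scaled together, the first 4 places and the last were held by the same groups.

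With octanal, Olfr2 was 7.06-fold higher than in the OC controls, with a 95% confidence interval of 4.19 to 11.9. On the log2 scale the change was 2.82 (SE 0.356, adjusted p = 3.9e-05, edgeR's quasi-likelihood test with Benjamini-Hochberg adjustment over 19568 genes). Without the first OC control it was 3.44. Across all genes, 32.3% were called in this comparison at an adjusted p under 0.05, 17.9% of all genes as higher, and 21.5% of the 859 receptor genes tested were called higher. Olfr2 was thus 1 of 185 receptor genes called higher, and by size of change it was the 90th of these, close to their median log2 change of 2.78 (lowest 0.65, highest 7.63).

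The change of Olfr2 was larger than that of the sensory neuron genes that rose beside it. Omp had a log2 change of 1.25 (SE 0.195). The 6 markers of mature sensory neurons, Omp among them, ran from 1.25 to 1.75 with a median of 1.50, while the median over receptor genes was -0.03. The difference between Olfr2 and these markers was not tested. The part of the neuron, red blood cell, stem cell and macrophage markers in the Olfr2 result was not tested. When libraries were scaled to their median receptor gene instead, Olfr2 still had a log2 change of 2.60 with octanal (adjusted p = 4.4e-05, edgeR's quasi-likelihood test). This scaling moved the median of all genes to -0.21 and the share of called genes that were higher to 33.6%, against 55.5% with TMM.

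The OC mixture libraries lay within the range of the octanal libraries. Olfr2 was 5.72-fold higher in the mixture than in OC controls, a log2 change of 2.52 (SE 0.353, adjusted p = 9.64e-05, edgeR's quasi-likelihood test), in a comparison that called 32.5% of all genes in either direction, 17.7% of all genes as higher and 23.2% of receptor genes as higher. Without the first OC control the change was 3.13, and scaled to the median receptor gene it was 1.99 (adjusted p = 0.000375). As with octanal, all 6 neuron markers were called higher and all 5 red blood cell markers lower, with a red blood cell sum of 9091 to 20582 CPM, and their part was not tested. Set directly against octanal, the mixture had a log2 difference of -0.30 with a 95% confidence interval of -0.98 to 0.37 (adjusted p = 0.998), and leaving out the second octanal library turned it to 0.041. The interval spans a level in the mixture from 0.506 to 1.30 times that with octanal. Only 0.0715% of all genes were called between the mixture and octanal.

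cis-3-Hexenol alone did not raise Olfr2. The log2 change was -0.82 (SE 0.378, adjusted p = 0.214, edgeR's quasi-likelihood test), with an unadjusted p of 0.0463, and 5.74% of all genes were called. It was -0.20 without the first OC control, and it passed with no filter on low counts (-0.84, adjusted p = 0.0131) or scaled to the median receptor gene (-1.40, adjusted p = 0.0154). The median receptor gene had a log2 change of 0.44 with cis-3-hexenol, and Olfr2 had the 13th lowest change of the 859. With cis-3-hexenol 5 of 6 neuron markers were also called higher and all 5 red blood cell markers lower, with a red blood cell sum of 19526 to 28113 CPM against 78038 to 92617 CPM in OC controls. The direct differences were 3.64 (SE 0.373, adjusted p = 2.08e-05) for octanal over cis-3-hexenol and 3.33 (SE 0.37, adjusted p = 6.91e-05) for the mixture over cis-3-hexenol. Those comparisons called 21% and 12.9% of all genes. Measured against the sum of its components' log2 changes, the mixture differed by 0.51, which did not pass (adjusted p = 0.793, with 0.0869% of all genes called).

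**Figure D2:**
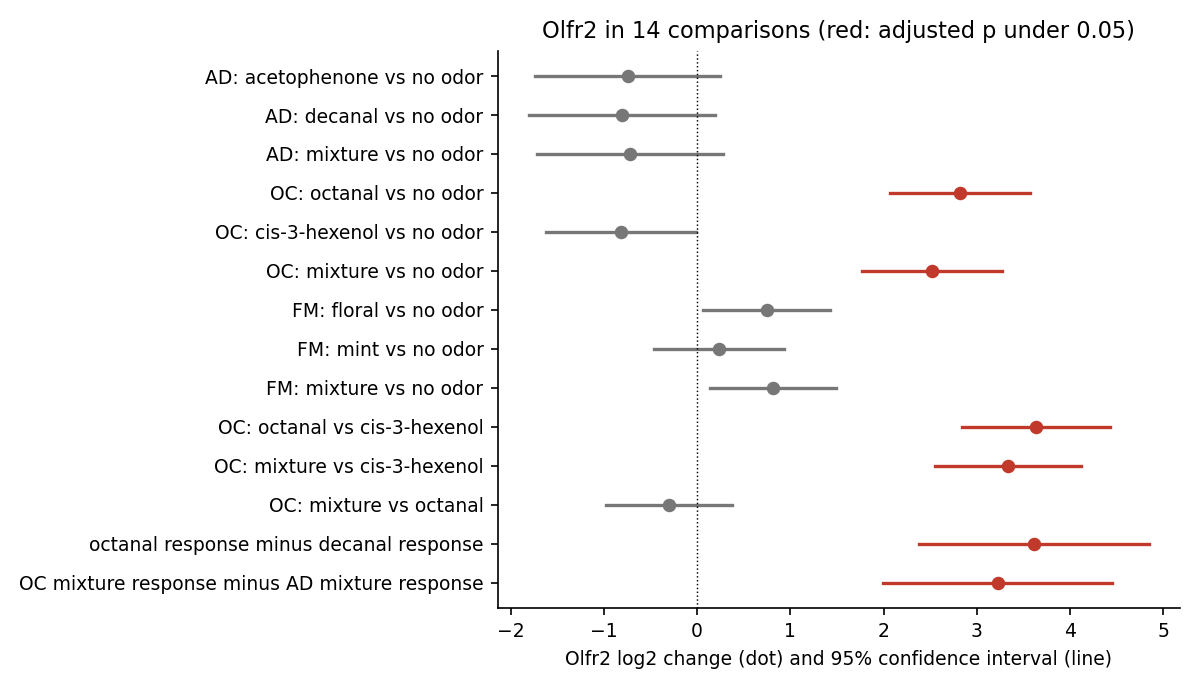
Olfr2 log2 changes (dots) with 95% confidence intervals (lines) in 14 comparisons, the first named group over the second, or the first response minus the second. The 6 red intervals, each in a comparison with octanal or the OC mixture over a group without octanal, had an adjusted p under 0.05, and the grey ones did not.

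Decanal, the longer aldehyde, did not raise Olfr2. The decanal libraries held 59, 24 and 45 counts, or 3.02, 1.23 and 2.22 CPM, against 101, 86 and 80 counts, or 4.01, 3.79 and 3.48 CPM, in AD controls. Every decanal library was below every AD control, but the log2 change of -0.80 (SE 0.466, 95% confidence interval -1.80 to 0.20) did not pass the test (adjusted p = 0.242, edgeR's quasi-likelihood test), in a comparison that called 22.3% of all genes in either direction, 11.5% of all genes as lower and 6.68% of receptor genes as lower. The interval leaves out any increase beyond 1.15-fold.

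The response to octanal exceeded that to decanal by 3.61 on the log2 scale (SE 0.597, 95% confidence interval 2.38 to 4.84, adjusted p = 9.29e-05, edgeR's quasi-likelihood test on 24 libraries in 8 groups). Each odor was set against the controls of its own set, and no library was shared. Of all genes 29.2% were called in that test, and 15.7% of 923 receptor genes were called higher, among which Olfr2 had the 44th largest difference. Without the first OC control the difference was 4.22. The comparison crosses batches, so odor and set cannot be told apart beyond what the sets' own controls remove. The 5 red blood cell markers were lower with octanal. With decanal they summed to between 39333 and 42114 CPM, against 15516 to 20989 CPM in AD controls, but none of the 5 was called. In the same test of octanal against decanal responses, 5 of 6 mature sensory neuron markers were called higher, with a median log2 difference of 1.16. Of all genes 16.1% were called higher there. The part of the red blood cell and neuron markers in the difference was not tested.

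Of the 185 receptor genes called higher with octanal, 183 were also tested with decanal. Among these, 46 were called higher with decanal, 22 lower and 115 neither. Over all receptor genes tested with decanal, 7.6% were called higher and 6.68% lower. Olfr2 belonged to the 115, with a decanal change below the median of the 183, which was 0.13. The decanal change was lower still for 34 of them.

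The other AD groups were also low in Olfr2. Acetophenone libraries held 1.22, 3.50 and 2.02 CPM and the AD mixture 3.14, 2.71 and 0.992 CPM. The log2 changes from AD controls were -0.74 (SE 0.462) with acetophenone and -0.72 (SE 0.463) with the AD mixture, with adjusted p of 0.401 and 0.303 by edgeR's quasi-likelihood test. Those comparisons called 5.49% and 21.4% of all genes. Differences among the 3 AD odor groups were between 0.02 and 0.08 on the log2 scale, and none passed, where 25.7% (mixture over acetophenone), 0.287% (mixture over decanal) and 29.5% (acetophenone over decanal) of all genes were called. The OC mixture response exceeded the AD mixture response by 3.22 (SE 0.593, adjusted p = 0.000322, edgeR's quasi-likelihood test), where 28.5% of all genes were called. This difference was 3.84 without the first OC control, and 2.61 with libraries scaled to the median receptor gene.

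In the FM set Olfr2 was slightly above its controls on average. Floral libraries held 3.15, 2.76 and 5.29 CPM, mint libraries 3.40, 2.22 and 2.25 CPM and the FM mixture 3.86, 4.30 and 3.57 CPM, against 1.50, 3.42 and 1.75 CPM in FM controls. The mixture libraries did not overlap the controls, and the others did. The log2 changes were 0.75 (SE 0.318, adjusted p = 0.131) with floral, 0.24 (SE 0.327, adjusted p = 0.701) with mint and 0.81 (SE 0.317, adjusted p = 0.127) with the mixture, all by edgeR's quasi-likelihood test. Of all genes, 14%, 11.2% and 9.64% were called in these 3 comparisons. Without the second FM control, the floral change was 1.20 and the mixture change 1.27, with adjusted p of 0.0259 and 0.0202, and with no filter on low counts both changes passed as well (adjusted p = 0.0422 and 0.0302).

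As a share of all receptor counts, Olfr2 overlapped between the octanal and the no-odor libraries, which its CPM did not. The share was 0.248%, 0.782% and 0.463% with octanal, against 0.326%, 0.104% and 0.111% in OC controls. The groups overlapped through the first control, and the ratio of means was 2.76 (2-sided exact permutation test, p = 0.2, n = 3 each, where the smallest p possible is 0.1). The OC mixture held 0.376%, 0.419% and 0.323%, a ratio of 2.06 (exact permutation test, p = 0.2, n = 3 each). The lowest mixture library lay just under the first control. Without that control the ratios were 4.62 with octanal and 3.46 with the mixture. With Olfr2 and the 10 highest receptor genes left out of the receptor total, they were 3.20 and 2.29. The exact permutation test then gave p = 0.2 with octanal and p = 0.1 with the mixture. On that total no mixture library overlapped a control, while octanal still did. Receptor genes made up 0.481% to 0.707% of counts with octanal, against 0.225% to 0.269% in OC controls.

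The first OC control was not high in receptor genes at large. Of the 859 receptor genes tested in the OC set, 21 were at least 2-fold higher in the first control than in both others, against 79 for the second control and 54 for the third. In the AD set the share of Olfr2 was below the controls with each odor. It averaged 0.0399% with acetophenone, 0.0472% with decanal and 0.0507% with the AD mixture, against 0.108% in AD controls, and no odor library overlapped a control (exact permutation test, p = 0.1 for each, the smallest possible with n = 3). It was likewise lower with cis-3-hexenol, at 0.0607% against 0.181% in OC controls (exact permutation test, p = 0.1, n = 3 each). That ratio of 0.336 became 0.564 without the first OC control. The receptor total also rose in these groups. Receptor genes made up 0.340% to 0.392% of counts in AD controls. With acetophenone, decanal and the AD mixture they made up 0.507% to 0.597%, 0.433% to 0.466% and 0.411% to 0.475%. With cis-3-hexenol they made up 0.421% to 0.477%, against 0.225% to 0.269% in OC controls. By CPM the acetophenone libraries overlapped the AD controls.

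**Figure D3:**
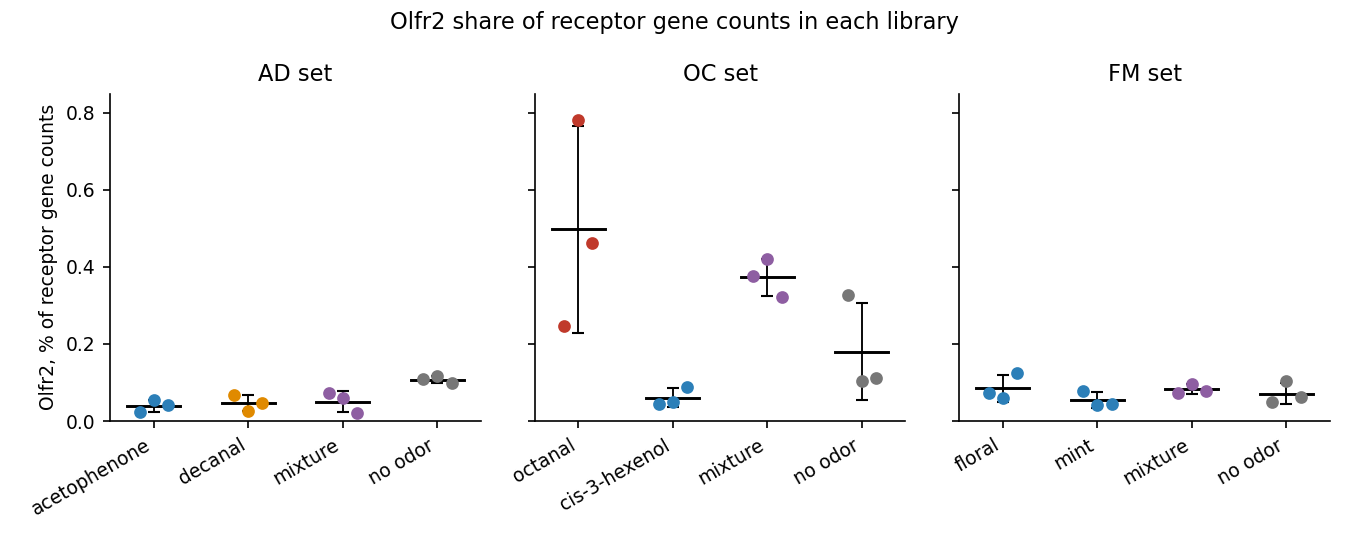
Olfr2 as a percentage of all receptor gene counts in each of the 36 libraries, with points for libraries and bars for the mean ± SD of 3 mice. The first OC control (0.326%) lies among the octanal and OC mixture libraries, and the AD odor libraries lie below the AD controls.

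The genes most similar to Olfr2 in protein sequence differed in how they moved. Olfr524, printed above, held 38.9, 34.2 and 48.9 CPM with octanal, against 10.6, 10.8 and 9.84 CPM in OC controls. It was higher with octanal by 1.96 (SE 0.183, adjusted p = 3e-06) and with the OC mixture by 1.87, and it was lower with decanal, at -1.48 (SE 0.314, adjusted p = 0.00428), all log2 changes from edgeR's quasi-likelihood test. Its octanal response exceeded its decanal response by 3.41. Olfr524 held 10.8, 8.69 and 10.8 CPM with decanal, against 44.3, 16.3 and 23.5 CPM in AD controls. The first AD control, which enters both values, stood above the others. Of the next 4 relatives, at 59.5% to 60.9% identity, Olfr711 rose with octanal by 0.74 (adjusted p = 0.0307) and Olfr1415 had 0.75 (adjusted p = 0.159). Olfr1416 had 0.17 and Olfr1414 had -0.02, neither of which passed. In all, 2 of 5 relatives were called higher with octanal, where 21.5% of receptor genes were, and 3 of 5 lower with decanal, where 6.68% of receptor genes were. The first AD control was also the highest for Olfr711 (181, 115 and 119 CPM in AD controls) and Olfr1415 (41.3, 19.9 and 20.9 CPM).

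The receptor genes beside Olfr2 on chromosome 7 also moved to different degrees. In order they are Olfr710, Olfr6, Olfr711 and the pseudogene Olfr712-ps1 on one side and Olfr713, Olfr714, Olfr17 and Olfr715b on the other. Of the 7 tested, 4 were called higher with octanal, 3 with the OC mixture and 1 with cis-3-hexenol, where 21.5%, 23.2% and 7.92% of receptor genes were called higher. With decanal 2 of the 7 were called lower and none higher, where 6.68% and 7.6% of receptor genes were. Their log2 changes with decanal ran from -2.04 to 1.01, with a median of 0.386. The 7 include Olfr711, which was also counted among the relatives. Olfr6 held 140.6, 80.2 and 64.7 CPM with octanal, against 10.5, 9.33 and 10.4 CPM in OC controls. It had the largest change of the 7, 3.24 (SE 0.282, adjusted p = 1.58e-06, edgeR's quasi-likelihood test), and with decanal it was lower, at -2.04 (SE 0.431), where the first AD control, at 81.8 CPM, stood above the others at 18.3 and 20.2 CPM. Olfr715b was higher with octanal by 3.19. Olfr714 was higher by 2.53 and held at most 1.24 CPM in an octanal library.

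**Figure D4:**
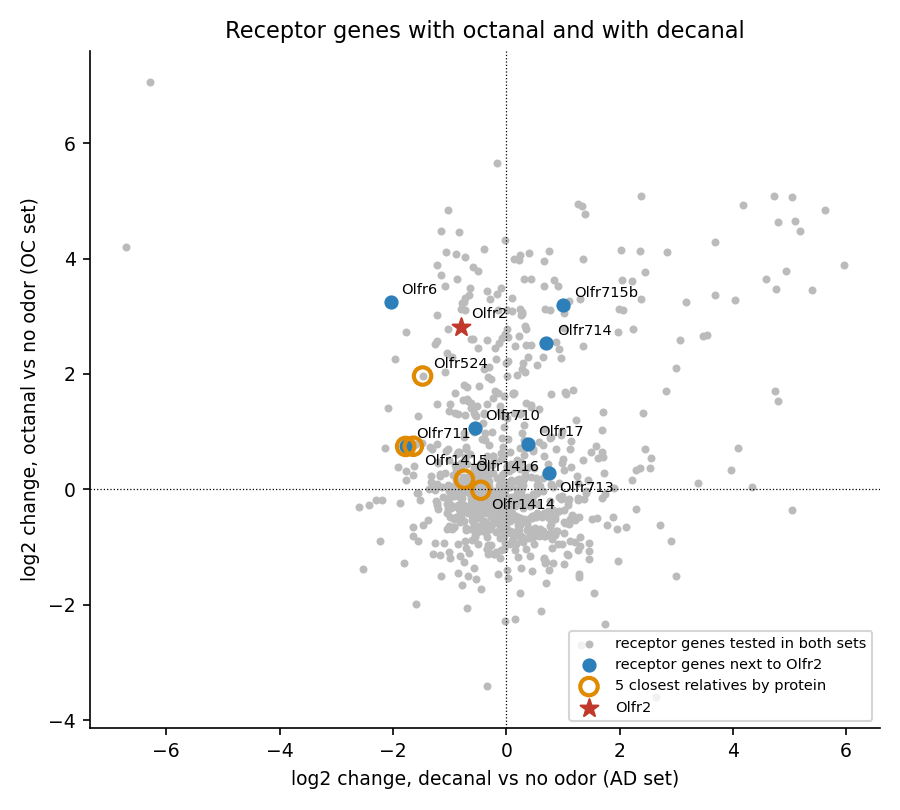
Log2 change of 826 receptor genes with octanal over OC controls (vertical axis) and with decanal over AD controls (horizontal axis). Olfr2, Olfr6 and Olfr524 lie at upper left, above 0 with octanal and below 0 with decanal, and the pattern is a description of points that share libraries within each axis.

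By their profile over the 27 odor libraries, each set against its own controls, the 6 receptor genes most like Olfr2 were Olfr63, Olfr122, Olfr119, Olfr1385, Olfr1360 and Olfr1392. Their Pearson r with Olfr2 ran from 0.875 to 0.923, against a median of 0.00593 over 790 receptor genes. The points share libraries and controls. These genes lie on chromosomes 17, 11 and 13, and their proteins were 40.2% to 44.6% identical to that of Olfr2, against a receptor median of 41.7%. By number of identical residues, Olfr119, Olfr122 and Olfr1360 ranked 86th, 99th and 125th closest, and the others from 275th to 728th. None was among the relatives or neighbours above. Their log2 changes ran from 1.48 to 4.11 with octanal and from 1.42 to 3.80 with the OC mixture. With decanal, 3 of the 6 were called lower, where 6.68% of receptor genes were. With cis-3-hexenol none was called, where 7.92% of receptor genes were called higher. The 6 were chosen by their profile over these same libraries, so these counts are a description.

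Outside the receptor family, genes with the most similar profiles included Pdlim1, a PDZ and LIM domain protein, Eif2b4, a subunit of a translation initiation factor complex, and Psmc4, a proteasome subunit. Their r ran from 0.914 to 0.927 and their octanal changes from 0.76 to 1.42, smaller than that of Olfr2. None of these stayed among the 4 closest when ranks or group means were used, though all did with a pseudocount of 1. Over group means their r was 0.965 to 0.981, and that of the 6 receptors 0.917 to 0.971. Of the 6 receptors, 5 stayed among the closest 6 each time. The receptors were ranked among 790 of the 15252 genes compared and the others among the rest, so these counts cannot be set against each other.

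**Figure D5:**
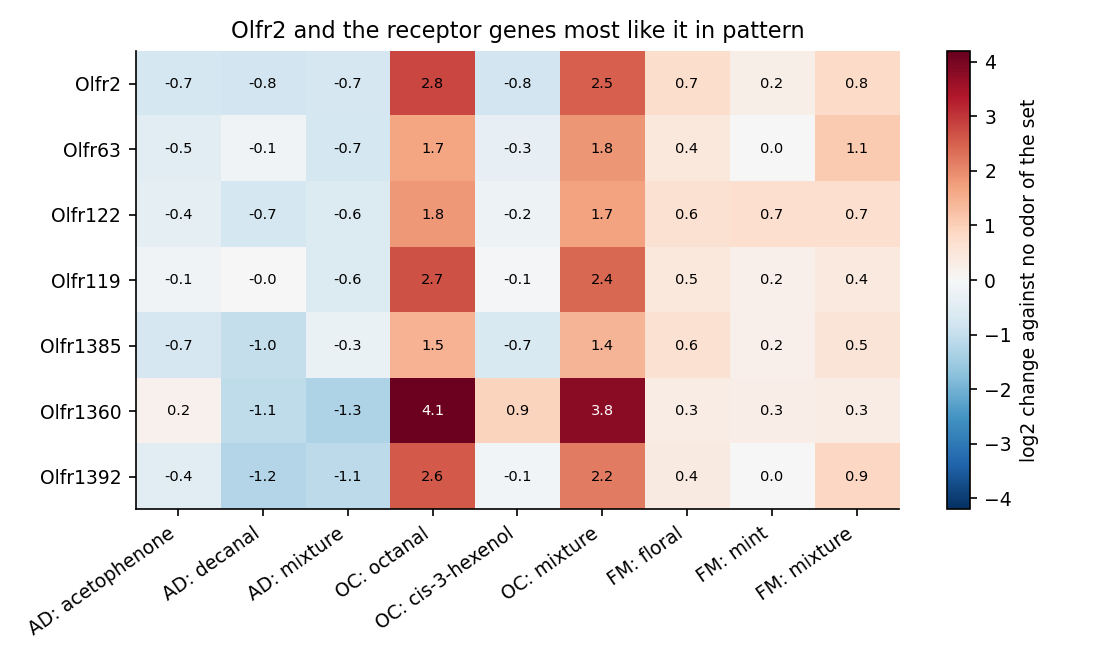
Log2 change from the no-odor controls of the set (numbers and colour) for Olfr2 and the 6 receptor genes most like it over 27 odor libraries, in 9 odor groups. The octanal and OC mixture columns are positive in every row, from 1.4 to 4.1, and the AD columns are near or below 0.

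The genes through which an odorant receptor signals rose with octanal too. Of 25 genes for the transduction steps and receptor transport, all tested, 22 were called higher with octanal and 1 lower, with a median log2 change of 1.29, against -0.04 over all genes. The largest of these changes was 1.75, against 2.82 for Olfr2, and the difference between them was not tested. Pde1c, a phosphodiesterase of the cilia, rose by 1.59, Rtp2, a receptor transporter, by 1.69 and Ric8b, which aids the olfactory G protein, by 1.62, each with an SE between 0.187 and 0.2. Grk3, a kinase that shuts off active receptors, fell by 1.19. With the OC mixture the counts were 22 higher and 1 lower, where 17.7% of all genes were called higher. With decanal 11 were called higher and with cis-3-hexenol 13, although Olfr2 was not raised by either. In those comparisons 10.8% and 2.58% of all genes were called higher. With acetophenone, the AD mixture, floral, mint and the FM mixture, 19, 13, 10, 17 and 15 were called higher. There 4.22%, 10.9%, 8.7%, 7.1% and 6.42% of all genes were called higher, so the rise was not particular to octanal. The list holds the 6 mature sensory neuron markers. The cis-3-hexenol count fell to between 1 and 5 when any 1 of its 6 libraries was left out.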

How the data were processed

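The deposited values were expected counts per gene from pS6-immunoprecipitated RNA. Per the submitters' processing notes, STAR 2.7.10b, Salmon 1.10.1, R 4.4.2 and GRCm39 were used; the annotation and the step that gave the counts are not given in the sources used here. Between 26.5% and 37.2% of values above 0 were fractional, and counts were rounded. Expected counts can split reads among similar genes. Symbols came from GENCODE vM21 on GRCm38, which named 52029 of 57010 identifiers; the others held at most 0.650% of a library.

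Each set was fitted alone with edgeR 4.0.16 (R 4.3.3): filterByExpr (minimum count 10, minimum total 15), TMM, the 2-sided quasi-likelihood test and Benjamini-Hochberg adjustment over all genes tested. SEs came from the change and its F statistic. The octanal and decanal responses were set against each other in 1 fit of both sets (24 libraries). The receptor share was tested by exact permutation. Named genes were Olfr2, the 6 receptor and 4 other genes closest by Pearson r of log2(CPM + 0.5) minus the control mean, the 5 most identical proteins (translated coding sequences, Biopython 1.88), 4 receptor genes on each side, and up to 4 called list members by smallest p. Omp and Grk3 were named outside this rule, after their values were seen, and some genes the rule named are not reported here. Members and lists were chosen with earlier results of these data known.

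Alternatives were DESeq2 1.42.0, no filter, the compared libraries alone, all 36 in a single fit, scaling to the median receptor gene, a replicate block, and each library left out. The fit was tested on simulated data. No library was a duplicate of another in its group: the lowest chi-square per gene between replicates was 9.71. Libraries of different groups were not compared in this way. Intervals rest on a spread per gene that is shared by all groups of a fit and moderated across genes, with 3 mice in each group.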

Additional observations from a re-analysis of the deposited data

Results flagged for a closer look

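The response of Olfr2 differed between the aldehydes of different sets. Olfr2 was higher with octanal and not with decanal, each over its own controls, and the difference of 3.61 on the log2 scale passed edgeR's quasi-likelihood test in the joint fit (adjusted p = 9.29e-05), with every octanal library above and every decanal library below its controls. The mixtures differed likewise, the OC mixture response exceeding the AD mixture response by 3.22 (adjusted p = 0.000322, edgeR's quasi-likelihood test). All 5 red blood cell markers were called lower with octanal, where 14.4% of all genes were. With decanal none was called, although their sum of 39333 to 42114 CPM stood above the 15516 to 20989 CPM of AD controls. Of the 6 neuron markers, 5 were called higher for the octanal minus decanal response, where 16.1% of all genes were. The part of these markers was not tested.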

How the results depend on the processing

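Across 23 comparisons of Olfr2 and 303 alternative fits, 277 kept both direction and side of the threshold, 6 newly passed it, 20 changed sign with none of these past the threshold, and no call was lost. Octanal over control ran from 2.60 to 2.85 under other settings and from 2.49 to 3.44 with a library left out. The range with a library left out was 2.30 to 3.13 for the OC mixture over control, 3.26 to 4.22 for the octanal minus decanal response and 2.87 to 3.84 for the mixture responses. cis-3-Hexenol over control passed with no filter (-0.84, adjusted p = 0.0131, edgeR) and when scaled to the median receptor gene (-1.40, adjusted p = 0.0154); floral and the FM mixture over control passed with no filter (0.74 and 0.80) and without the second FM control (ranges 0.41 to 1.20 and 0.59 to 1.27). Signs turned near 0 for the AD mixture over acetophenone with the replicate block (-0.038), and, scaled to the median receptor gene, for acetophenone over decanal (-0.14) and the FM mixture over floral (-0.077). With a library left out, the ranges across 0 were -0.28 to 0.49 (AD mixture over acetophenone), -0.22 to 0.44 (over decanal), -0.42 to 0.38 (acetophenone over decanal), -0.53 to 0.041 (OC mixture over octanal), -0.10 to 0.88 (OC interaction), -0.11 to 0.41 (FM mixture over floral) and -0.62 to 0.17 (FM interaction). The cause was not tested.

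Transduction genes called higher numbered 7 with decanal and 0 with cis-3-hexenol under scaling to the median receptor gene, and 1 to 5 with cis-3-hexenol when a library was left out. Of the 4 genes outside the receptor family closest to Olfr2, 0 stayed with group means and 0 with ranks. Genes called with octanal numbered 6321, and 3932 without the first octanal library. Genes called for octanal over cis-3-hexenol numbered 4105, 2656 with only those libraries, and 2442, 1733 and 1552 without octanal replicate 1, cis-3-hexenol replicate 2 and cis-3-hexenol replicate 3. For the OC mixture over cis-3-hexenol, 2523 genes were called, 4848 in the fit of 36 libraries and 803 with receptor scaling. They were 702, 1145, 338 and 336 without mixture replicates 1 and 3 and cis-3-hexenol replicates 2 and 3, each left out alone. Receptor scaling gave 11.8% of called genes as higher for the OC mixture, against 54.4% with TMM, with a median of all genes of -0.51. These shares were 2.18% against 44.9% for cis-3-hexenol, 91.3% against 57.2% for octanal over cis-3-hexenol, 27.6% against 55.1% for the octanal minus decanal response, 11.3% against 52.9% for the mixture responses, 50.3% against 76.8% for acetophenone and 41.4% against 66.6% for FM mixture.

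The labels give same-numbered libraries no link beyond the number. Correlations of their deviations ran from -0.194 to 0.187, against -0.280 to 0.206 for libraries with different numbers. With 3 libraries in a group, these cannot exclude a weak pairing. With the replicate block, octanal over control was 2.83 (adjusted p = 0.000132, edgeR) and no call of Olfr2 changed. At 21 to 141 counts without octanal, small changes were not detectable.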
